A study of Mus musculus with 11 samples.

Results

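The carbonic anhydrase genes *Car2*, *Car3*, *Car4*, *Car5b*, *Car6*, *Car8*, *Car9*, *Car12*, *Car13* and *Car14* were followed in 2 mouse tissues, skin and small intestine, after imiquimod (IMQ) or control cream. They are 10 of the 16 carbonic anhydrase genes among the 45777 genes measured, and they were taken by gene symbol. The list was chosen from earlier results on the levels and changes in these same libraries, with no stated threshold, so the values of its members are descriptions and their number is not evidence about the family. IMQ activates the receptor TLR7 and, on mouse skin, brings on an inflammation that resembles psoriasis. All mice were of the BALB/c strain and 8 to 10 weeks old, and received 62.5 mg of cream per day on shaved back skin and on one ear for 5 to 8 days. The IMQ groups received Aldara, a cream with 5% IMQ, and the control groups received Vaseline, so the base of the cream differed along with the drug. There were 3 control libraries (replicates 1 to 3) and 3 IMQ libraries (replicates 4 to 6) of the skin, and 3 control libraries (replicates 7 to 9) and 2 IMQ libraries (replicates 10 and 11) of the small intestine. The annotation does not give the sex or the days of treatment of each mouse, or which tissues came from one mouse.

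Carbonic anhydrases catalyze the reversible hydration of carbon dioxide to bicarbonate and a proton, and so serve pH control, ion transport and acid or bicarbonate secretion. The members differ mainly in where they act. *Car2*, *Car3* and *Car13* encode cytosolic enzymes, *Car5b* a mitochondrial one and *Car6* a secreted one. *Car4* encodes an enzyme anchored to the outer face of the plasma membrane by a lipid, and *Car9*, *Car12* and *Car14* encode transmembrane enzymes with an extracellular catalytic domain. *Car8* encodes a carbonic anhydrase-related protein without catalytic activity. In the intestine the family takes part in bicarbonate and salt transport across the epithelium, *Car9* is a known target of hypoxia-inducible factor, and *Car3* is abundant in adipocytes and skeletal muscle.

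The 10 members lie on 5 chromosomes of the mm10 (GRCm38) genome. *Car13* (14641727 to 14663002), *Car3* (14863538 to 14872381) and *Car2* (14886269 to 14900770) are close neighbors on the plus strand of chromosome 3, where *Car14* lies apart (95897768 to 95905117). *Car8* (8141493 to 8239041), *Car9* (43507026 to 43513729) and *Car6* (150187015 to 150201135) are on chromosome 4, *Car12* is on chromosome 9 (66712296 to 66766845), *Car4* on chromosome 11 (84957754 to 84966054) and *Car5b* on chromosome X (163976822 to 164028010). Despite their kinship, none of the 100-base windows of the longest protein-coding transcript of any member recurred exactly in an annotated transcript of another gene (0 of 1157 to 0 of 3754 windows per member). Exons of *Car14* overlap those of *Aph1a* and exons of *Car9* overlap those of *Gm12454*, in both cases on the opposite strand. The library kit keeps the strand, but whether the counting used it is not stated, so the values of *Car14* and *Car9* are less certain.

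Promoter windows from 250 bases before to 50 bases after an annotated start were matched in RefSeq (GRCm38.p6) for 6 members, namely *Car4*, *Car5b*, *Car6*, *Car9*, *Car12* and *Car14*. They were searched on both strands for 4 short motifs. ACGTG is the core of the hypoxia response element. The TATA box was read as TATAAA. The site of the factor AP-1 was read as TGANTCA. The site of STAT factors was read as TTCNNNGAA. ACGTG was present in the windows of 4 of the 6 members (*Car4*, *Car6*, *Car9* and *Car14*), against 19.6% of all 32851 windows. TATAAA was found in that of *Car4* (13.6% of all windows), TGANTCA in that of *Car9* (7.81% of all windows) and TTCNNNGAA in no member window (8.30% of all windows). The windows of *Car4* and *Car12* are shown because these genes rose in the skin after IMQ, and that of *Car9* as the known hypoxia target of the family. Capitals mark the matches, which do not overlap each other. In *Car4* (chr11:84957504-84957803, plus strand) they are the core on the opposite strand at base 3 after the start and TATAAA at base 43. In *Car9* (chr4:43506776-43507075, plus strand) they are TGAGTCA at base -77 and the core on the opposite strand at base -18. The window of *Car12* (chr9:66713436-66713735, plus strand) held none of the searched letters. It lies wholly inside the gene, which begins at 66712296, so the sequence before that first base was not searched. The window of *Car14* (chr3:95904636-95904935, minus strand) also lies inside its gene, whose 5' end is at 95905117.
Car4: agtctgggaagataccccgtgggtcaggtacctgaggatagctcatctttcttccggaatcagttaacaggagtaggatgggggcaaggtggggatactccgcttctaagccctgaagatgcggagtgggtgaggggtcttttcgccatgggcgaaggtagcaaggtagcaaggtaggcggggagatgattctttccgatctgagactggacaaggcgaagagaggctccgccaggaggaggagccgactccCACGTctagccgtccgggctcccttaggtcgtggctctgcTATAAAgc
Car12: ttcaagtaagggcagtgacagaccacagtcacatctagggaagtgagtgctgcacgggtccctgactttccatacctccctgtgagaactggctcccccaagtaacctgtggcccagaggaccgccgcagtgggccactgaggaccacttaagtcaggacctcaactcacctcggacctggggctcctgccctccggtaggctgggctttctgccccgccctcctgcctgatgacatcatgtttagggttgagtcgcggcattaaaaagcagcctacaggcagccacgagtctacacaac
Car9: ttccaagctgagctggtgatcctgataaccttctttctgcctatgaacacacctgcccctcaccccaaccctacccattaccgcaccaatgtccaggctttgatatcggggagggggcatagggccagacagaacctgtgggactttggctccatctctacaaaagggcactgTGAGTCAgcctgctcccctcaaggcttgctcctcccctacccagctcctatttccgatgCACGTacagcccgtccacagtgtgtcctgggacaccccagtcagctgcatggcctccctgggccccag

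The libraries held 44995414 to 58526384 counts. The tissues matched their labels. A list of 8 keratinocyte markers had a summed FPKM (fragments scaled to transcript length and to the mapped fragments of the library) of 5130 to 9938 in control skin and 0.764 to 1.55 in control small intestine, and a list of 10 enterocyte markers had 12040 to 18526 in control small intestine. Control replicate 2 of the skin stood apart. Its enterocyte markers reached 253, or 1.60% of their mean in control small intestine, against 0.0251% and 0.0443% in the other controls of the skin and 0.0817% to 0.191% in IMQ-treated skin. Its 10 hair follicle markers were at 6.27, near IMQ-treated skin (3.77 to 4.62) and unlike the other controls (605 and 989). The changes of *Car2*, *Car3*, *Car4*, *Car5b*, *Car12* and *Car13* in the skin are therefore also given without this library. Those of the other members and of the gene lists are given with all skin libraries. The tissues are mixtures of cells, and fewer cells of a type cannot be told apart from less RNA per cell.

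The tissues used different carbonic anhydrases. In control skin, *Car3* alone made up 90.7% to 94.5% of the summed FPKM of the 16 family genes, whereas in control small intestine *Car4* made up 51.3% to 55.3%, *Car13* 18.9% to 27.6% and *Car9* 10.8% to 16.8%. The summed level of the family was 946 to 1732 FPKM in control skin and 163 to 194 FPKM in control small intestine. Without *Car3*, the sums were 63.2 to 95.6 FPKM and 163 to 194 FPKM.

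**Figure D1:**
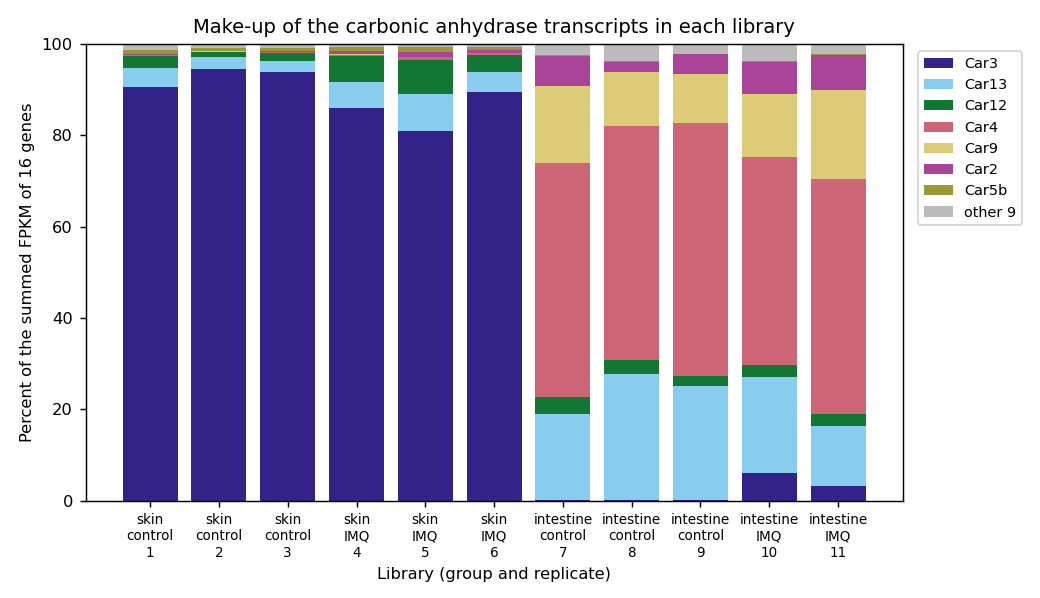
Each bar is 1 library, labeled with its group and replicate, and shows the percent of the summed FPKM of 16 carbonic anhydrase genes that each gene takes. *Car3* fills 80.9% to 94.5% of the bars of the skin, while *Car4*, *Car13* and *Car9* fill most of the bars of the small intestine, in which *Car3* is visible only after IMQ (6.08% and 3.23%).

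By FPKM, the order of mean levels in control skin (n = 3) was *Car3* (1149 ± 424 SD), *Car13* (36.4 ± 9.65), *Car12* (21.0 ± 3.56), *Car5b* (9.38 ± 2.83), *Car6* (4.94 ± 2.13), *Car14* (3.05 ± 0.675), *Car2* (1.99 ± 0.0343), *Car4* (1.20 ± 0.327), *Car9* (0.836 ± 0.147) and *Car8* (0.228 ± 0.0383). The ranges of neighbors in this order overlapped for *Car6* and *Car14* and for *Car4* and *Car9*. In control small intestine (n = 3) the order was *Car4* (95.7 ± 11.8 SD), *Car13* (43.6 ± 11.3), *Car9* (23.5 ± 3.34), *Car2* (7.81 ± 3.41), *Car12* (5.45 ± 0.869), *Car8* (2.06 ± 0.749), *Car14* (0.350 ± 0.231), *Car5b* (0.251 ± 0.0649) and *Car3* (0.0705 ± 0.0276). Here the ranges of *Car2* and *Car12* overlapped, as did those of *Car14* and *Car5b*. *Car6* came last, with raw counts of 0, 0 and 4.

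The difference between control skin and control small intestine was tested with the quasi-likelihood F-test of edgeR in one model of all 11 libraries, with p-values adjusted by the method of Benjamini and Hochberg over 18108 genes. Of these genes, 57% passed an adjusted p of 0.05, 28.8% higher and 28.2% lower in the skin. All 9 members tested passed, 4 toward the skin and 5 toward the small intestine, while *Car6* was left out because it had 0 counts in some libraries. The log2 difference, skin against small intestine, was largest for *Car3*, at 13.39 (standard error, SE, 0.55, adjusted p = 2.59e-08). The mitochondrial *Car5b* had one of 4.78 (adjusted p = 3.15e-07) and the transmembrane *Car14* and *Car12* had 2.54 and 1.43 (edgeR adjusted p = 0.00539 and 1.08e-04). On the intestinal side were the membrane-bound *Car4* (-6.86, adjusted p = 1.11e-07) and *Car9* (-5.25, adjusted p = 7.83e-08). The catalytically inactive *Car8* (-3.60, adjusted p = 1.71e-06) and the cytosolic *Car2* (-2.44, adjusted p = 1.51e-04) were also on that side. *Car13* was near even between the tissues, with a log2 difference of -0.69 (SE 0.26, edgeR adjusted p = 0.0426). Its call was lost with TMM normalization (adjusted p = 0.0554), without filter (0.0578), in a fit of control libraries only (0.0703), and without control replicate 1, 3, 8 or 9 (0.0928, 0.144, 0.116 and 0.134).

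In the skin, *Car2*, *Car4* and *Car12* rose after IMQ, by 3.59-, 3.39- and 2.68-fold, and 7 members did not pass the test. All 10 members had a count in every library of the skin and were tested. Of the 20512 genes tested in the skin, 6.74% passed the same threshold, 4.05% higher and 2.69% lower, beside 3 of 10 members, all 3 higher. The groups did not overlap for the same 3 members, and for 28.4% of all genes tested (15.1% higher and 13.3% lower). The median log2 fold change was 0.26 over the 10 members and -0.01 over all genes.

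*Car2*, the widespread high-activity cytosolic enzyme, had normalized counts of 203, 208 and 192 in control mice and 878, 809 and 476 in IMQ-treated mice. The controls were nearly alike and every IMQ library was above them. Its log2 fold change was 1.84 (SE 0.25, edgeR adjusted p = 0.0114). In FPKM the level rose from 1.99 ± 0.0343 (SD, n = 3) to 6.85 ± 1.66 (SD, n = 3).

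*Car12*, the transmembrane enzyme, had normalized counts of 4890.5, 4400.1 and 3424 in control mice and 13788, 12017 and 8238 in IMQ-treated mice. All IMQ libraries were above all controls, and replicate 6 was the lowest of them, as for *Car2*. The log2 fold change was 1.42 (SE 0.23, edgeR adjusted p = 0.0183). After IMQ, *Car12* reached 53.3 ± 11.6 FPKM (SD, n = 3), close to *Car13* at 56.4 ± 8.80 FPKM (SD, n = 3), the most abundant member after *Car3*.

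*Car4*, the enzyme anchored to the cell surface, was low in the skin, with normalized counts of 78.7, 115 and 61.9 in control mice and 161, 390 and 312 in IMQ-treated mice. The groups did not overlap, but the lowest IMQ library, replicate 4, was close to the highest control, replicate 2. The log2 fold change was 1.76 (SE 0.40, edgeR adjusted p = 0.0478). *Car4* is the main carbonic anhydrase gene of the small intestine, so its level in the skin is also given as a percent of the mean FPKM in control small intestine. It was 1.19%, 1.62% and 0.950% in control and 2.25%, 5.63% and 4.67% in IMQ-treated mice. The summed enterocyte markers of the same libraries were at 0.0443%, 1.60% and 0.0251% in control and 0.191%, 0.189% and 0.0817% in IMQ-treated mice. The part of intestinal transcripts in the values of *Car4* was not tested.

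**Figure D2:**
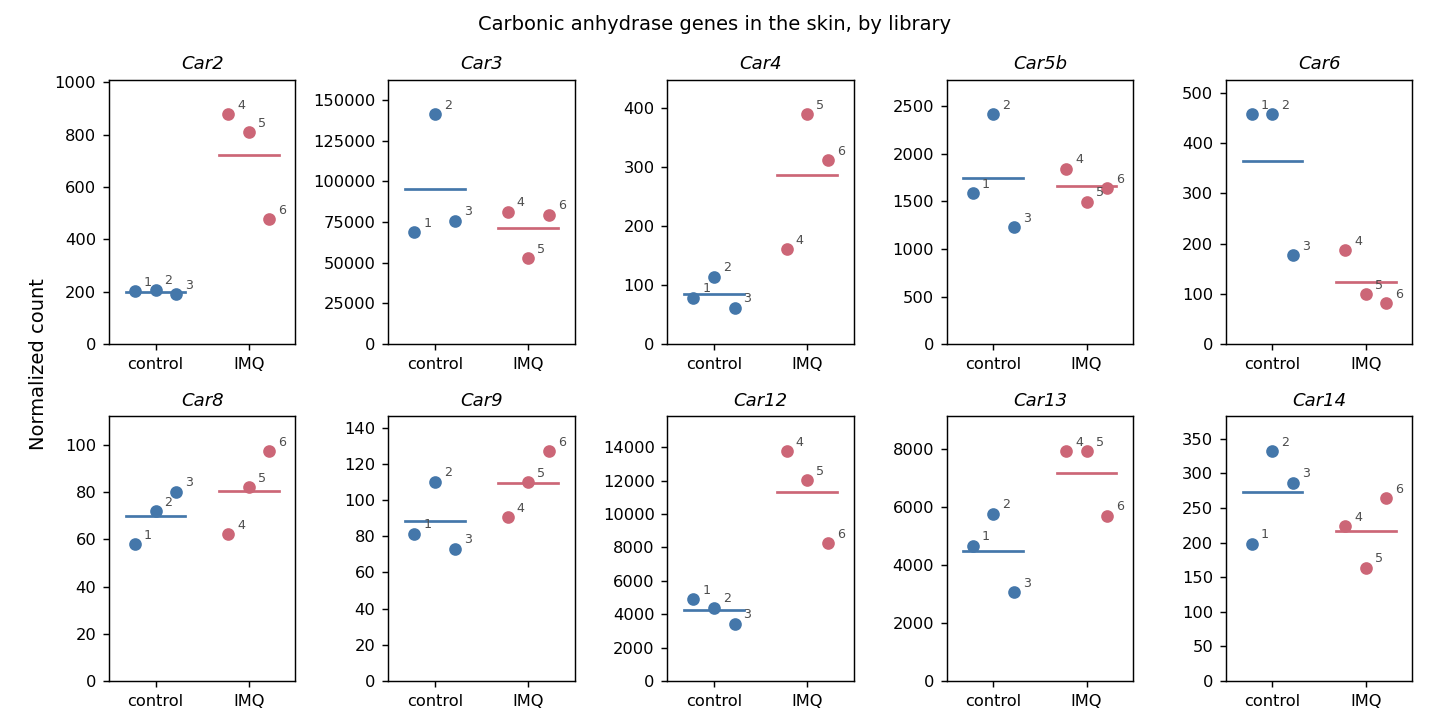
Normalized counts of the 10 carbonic anhydrase genes in each skin library, with control libraries 1 to 3 in blue and IMQ libraries 4 to 6 in red; each point is 1 library labeled with its replicate, lines are group means and each panel has its own axis from 0. The IMQ libraries lie above all controls for *Car2* (476 to 878 against 192 to 208), *Car4* (161 to 390 against 61.9 to 115) and *Car12* (8238 to 13788 against 3424 to 4890.5).

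These calls rested on few libraries. Without control replicate 2, which had raised intestinal and low hair follicle transcripts, the log2 fold changes were 1.87 for *Car2*, 1.45 for *Car12* and 2.03 for *Car4*, and all 3 were called (adjusted p = 0.0172, 0.0276 and 0.0358). *Car2* lost its call without control replicate 1 (adjusted p = 0.0588) or IMQ replicate 5 (0.0606). *Car12* lost it without control replicate 1 (0.0594), IMQ replicate 4 (0.0569) or IMQ replicate 5 (0.0810). *Car4* lost it without control replicate 1 (0.161), control replicate 3 (0.109), IMQ replicate 5 (0.174) or IMQ replicate 6 (0.118), and also in limma-voom (0.0570) and without filter (0.0589). Over all these fits the log2 fold changes stayed between 1.68 and 2.07 for *Car2*, 1.26 and 1.61 for *Car12* and 1.48 and 2.05 for *Car4*.

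The cell type markers moved in the skin as well. Of the 7 myeloid markers tested, 5 were called higher by edgeR and 6 were called by DESeq2, and their summed FPKM was 309 to 436 in control and 642 to 879 in IMQ-treated skin. Of 5 erythroid markers, 2 were called higher by edgeR and 5 were called by DESeq2 (all 5 at an unadjusted p under 0.05), with a sum of 111 to 214 in control and 292 to 775 in IMQ-treated skin. Red cells carry much carbonic anhydrase, mainly from *Car1* and *Car2*, and *Car1* had raw counts of 4, 10 and 5 in control and 0, 0 and 7 in IMQ-treated skin. Of 8 keratinocyte markers, *Krt14* was called higher and *Krt15* lower, and the sum was 5130 to 9938 in control and 8011 to 13370 in IMQ-treated skin. Of 6 hair follicle markers tested, 2 were called lower by edgeR and 6 by DESeq2, all 6 had an unadjusted p under 0.05, and the median log2 fold change was -6.02. In control replicate 2, the control with low hair follicle markers, *Car2* had 208, *Car4* 115 and *Car12* 4400.1 normalized counts. The values of *Car2* and *Car4* were the highest of the controls, that of *Car2* only narrowly. In the small intestine, 5 of 7 myeloid markers (152 to 198 FPKM summed in control, 244 and 255 after IMQ) and 0 of 5 erythroid markers were called, the latter with 2 at an unadjusted p under 0.05 and 0 by DESeq2. The part of the myeloid, erythroid, keratinocyte and hair follicle markers in the changes of *Car2*, *Car4* and *Car12* was not tested.

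The secreted enzyme *Car6* had normalized counts of 457, 457 and 177 in control skin and 187, 99.7 and 81.7 in IMQ-treated skin. The groups overlapped by control replicate 3, and the log2 fold change of -1.57 (SE 0.47) was not called (edgeR adjusted p = 0.101). It was called by the Wald test of DESeq2 (adjusted p = 0.00701) and without control replicate 3 (0.0473). The 8 sebaceous gland markers had a summed FPKM of 595, 554 and 294 in control and 153, 166 and 283 in IMQ-treated skin. As for *Car6*, control replicate 3 was the lowest control, but among the IMQ libraries the order was the reverse. Of these markers 3 were called lower by edgeR and 6 by DESeq2. Their part in the values of *Car6* was not tested.

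*Car13* had normalized counts of 4658, 5762 and 3061 in control and 7933, 7921 and 5704 in IMQ-treated skin. The groups overlapped narrowly, between control replicate 2 and IMQ replicate 6, and the log2 fold change of 0.68 was not called (SE 0.25, edgeR adjusted p = 0.166). The overlap came from control replicate 2 alone. Without it the log2 fold change was 0.90, also not called (edgeR adjusted p = 0.0677). For *Car3*, the normalized counts were 68894, 141183 and 75773 in control and 81462, 52761 and 79526 in IMQ-treated skin. Control replicate 2 was the highest and the others overlapped, with a log2 fold change of -0.42 (SE 0.33, adjusted p = 0.506), or -0.02 without that replicate. The 8 adipocyte markers were also highest in control replicate 2, with a summed FPKM of 2262 against 1252 to 1593 in the other 5 libraries. So were the 10 skeletal muscle markers, with 6646 against 3282 to 6546. Both lists were lowest in IMQ replicate 5, as was *Car3*. By edgeR 0 markers of either list were called, and by DESeq2 1 adipocyte and 0 muscle markers were. The part of either list in the values of *Car3* was not tested. *Car5b*, *Car8*, *Car9* and *Car14* overlapped between the groups, with log2 fold changes of -0.07, 0.20, 0.31 and -0.33 (adjusted p = 0.903, 0.703, 0.530 and 0.535).

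In the small intestine, *Car3* rose 84.1-fold after IMQ and no other member passed the test. Of the 19965 genes tested, 2.95% passed the threshold and 2.77% passed it as higher (0.17% as lower), beside 1 of 9 members. *Car6* was not tested, since it had raw counts of 0, 0 and 4 in control and 0 and 2 in IMQ-treated mice. The median log2 fold change was -0.40 over the 9 members tested and -0.02 over all genes.

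*Car3* had raw counts of 4, 7 and 10 in control mice and 817 and 406 in IMQ-treated mice. In normalized counts these were 4.34, 7.06 and 9.24 against 742 and 450.2, so both IMQ libraries were far above all controls. The log2 fold change was 6.39 (SE 0.38, edgeR adjusted p = 3.62e-04), the second largest among the 554 genes called higher. It was called without any one of the 5 libraries, with log2 fold changes from 5.995 to 6.71 and adjusted p-values up to 0.00380, and in all 6 other fits (6.36 to 6.42). In FPKM, *Car3* went from 0.0705 ± 0.0276 (SD, n = 3) to 6.57 ± 2.60 (SD, n = 2), which was 0.732% and 0.412% of its mean level in control skin.

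Since *Car3* is an abundant gene of fat, muscle and skin samples, markers of these were read beside it. The keratinocyte markers *Krt5* and *Krt14* had 0 counts in both IMQ libraries of the small intestine, and the summed keratinocyte list was at 0.636 and 0.724 FPKM, against 0.764 to 1.55 in the controls. The 10 skeletal muscle markers had a summed FPKM of 7.88 and 3.62 in IMQ-treated and 4.76 to 5.70 in control mice, and 0 of the 4 tested were called, with 0 at an unadjusted p under 0.05 and 0 by DESeq2. Of the adipocyte markers, *Adipoq* had 7 and 0 counts in the IMQ libraries and 0 in all controls, *Plin1* had 4 and 0 against 0, and *Lep* had 0 in all 5 libraries. *Cfd* had 17 and 0 counts against 0, 0 and 3, and *Retn* had 8 and 0 against 0. *Plin4* ranged from 171 to 753 normalized counts in the IMQ libraries and from 221 to 473 in the controls. In IMQ replicate 10, the library with the most *Car3*, 1 of the 8 adipocyte markers was at 0, whereas 4 or 5 were at 0 in the other 4 libraries. The summed adipocyte list was higher, at 80.7 and 74.5 FPKM against 33.8 to 48.1. Most of it came from *Cidec* (39.3 and 47.3 FPKM after IMQ) and *Fabp4* (38.7 and 26.8 FPKM). In the controls these 2 genes had means of 21.5 and 20.4 FPKM. Which cells they came from was not tested. Of the 3 adipocyte markers tested, 0 were called by edgeR or DESeq2 and 2 had an unadjusted p under 0.05. In IMQ replicate 11, *Car3* had 406 counts and 5 of the 8 adipocyte markers were at 0, while the muscle genes *Acta1* and *Ckm* had 41 and 83 counts (18 to 27 and 172 to 305 in the controls, 27 and 504 in IMQ replicate 10). The part of adipocyte and muscle transcripts in the rise of *Car3* was not tested.

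**Figure D3:**
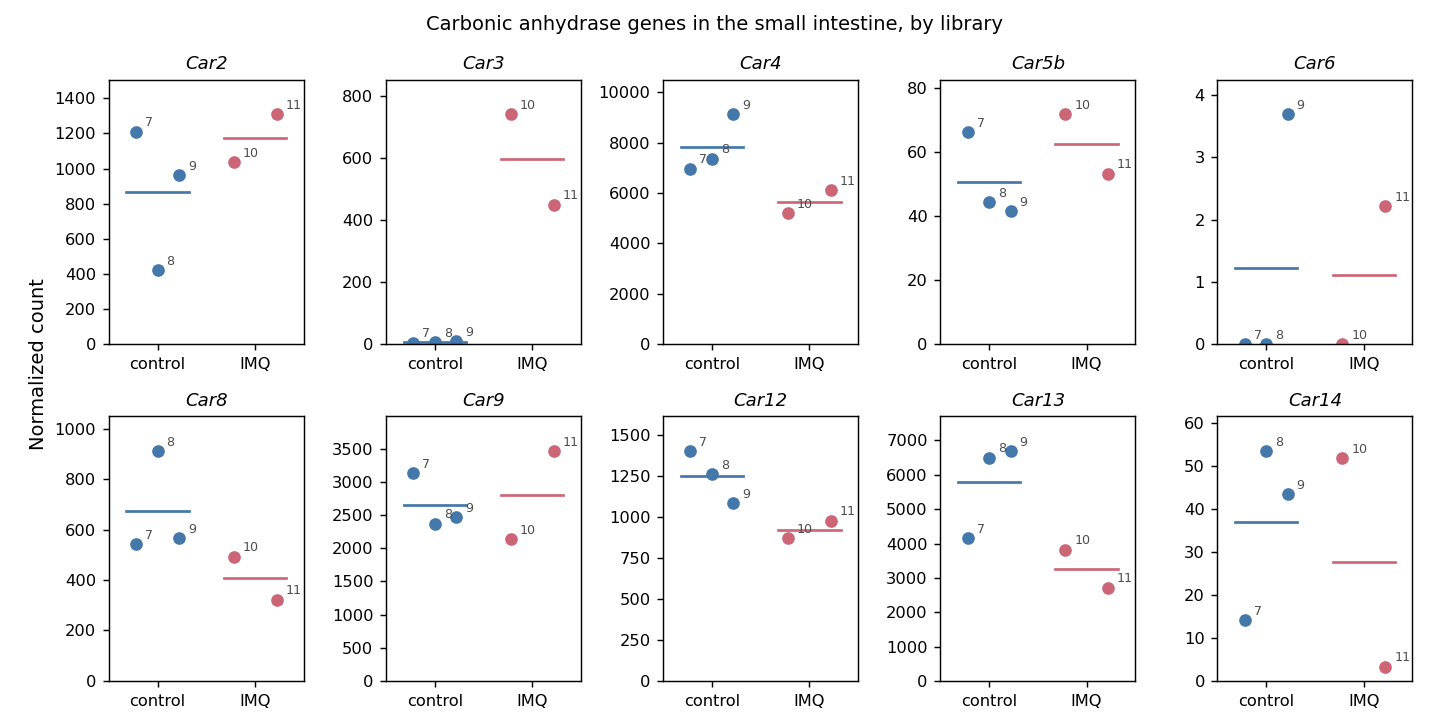
Normalized counts of the 10 carbonic anhydrase genes in each library of the small intestine, with control libraries 7 to 9 in blue and IMQ libraries 10 and 11 in red; each point is 1 library labeled with its replicate, lines are group means and each panel has its own axis from 0. *Car3* is at 4.34 to 9.24 in the controls and at 742 and 450.2 after IMQ, whereas *Car4*, *Car8*, *Car12* and *Car13* are lower in both IMQ libraries than in all controls.

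Below the threshold, 4 members were lower in both IMQ libraries than in the lowest control. Over all genes tested the groups did not overlap for 29%, of which 15.1% were higher and 13.9% lower as a share of all genes. *Car13* had normalized counts of 4146, 6500 and 6695 in control and 3819 and 2717 in IMQ-treated mice, a log2 fold change of -0.82 (SE 0.25, edgeR adjusted p = 0.192). It was called by the Wald test of DESeq2 (adjusted p = 0.0419) and without control replicate 7 (0.0334). *Car4*, the leading member of this tissue, had 6969, 7372 and 9131 in control and 5203 and 6112 in IMQ-treated mice, a log2 fold change of -0.47 (SE 0.17, adjusted p = 0.283). *Car12* had a log2 fold change of -0.44 (SE 0.16, adjusted p = 0.302) and *Car8* one of -0.73 (SE 0.30, adjusted p = 0.391). Of the 10 enterocyte markers, 0 were called by edgeR and 1 by DESeq2, and 3 had an unadjusted p under 0.05. Their summed FPKM was 12040 to 18526 in control and 24225 and 27576 in IMQ-treated mice, but only 5 of the 10 had a positive log2 fold change (median 0.23). The 6 goblet cell markers had 4495 to 5394 in control and 4043 and 3592 in IMQ-treated mice, with 0 called by edgeR, 1 by DESeq2 and 3 at an unadjusted p under 0.05, and the part of either list in the values of the 4 members was not tested.

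*Car2* had normalized counts of 1209, 422 and 961 in control and 1036 and 1310 in IMQ-treated small intestine. Control replicate 8 was low and the groups overlapped, with a log2 fold change of 0.44 (SE 0.39, edgeR adjusted p = 0.760). *Car9* had 3134, 2368 and 2469 in control and 2133 and 3468 in IMQ-treated mice, so the IMQ libraries enclosed the controls (log2 fold change 0.08, adjusted p = 0.946). *Car5b* was low, at 41.6 to 66.2 in control and 71.7 and 53.2 in IMQ-treated mice (log2 fold change 0.31, adjusted p = 0.817). *Car14* was at 14.1 to 53.4 in control and at 51.7 and 3.33 in IMQ-treated mice, too variable to compare (SE 0.91 on the log2 scale).

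Whether the response differed between the tissues was tested with an interaction term over 18108 genes, of which 2.55% passed (1.7% positive and 0.856% negative). Among 9 members tested, 3 passed, namely *Car3*, *Car4* and *Car12*. The interaction is the log2 fold change in the small intestine minus that in the skin. It was 6.83 for *Car3* (SE 0.58, adjusted p = 4.87e-04), -1.85 for *Car12* (SE 0.30, adjusted p = 0.0113) and -2.22 for *Car4* (SE 0.46, adjusted p = 0.0323). For *Car13*, whose log2 fold changes were 0.68 and -0.82 without a call in either tissue, the interaction was -1.49 (SE 0.40, adjusted p = 0.0829). It was called by DESeq2 (adjusted p = 0.0102) and without control replicate 2 of the skin (0.0270). For *Car2* it was -1.40 (SE 0.52, adjusted p = 0.198), so its rise in the skin was not shown to differ from its values in the small intestine.

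**Figure D4:**
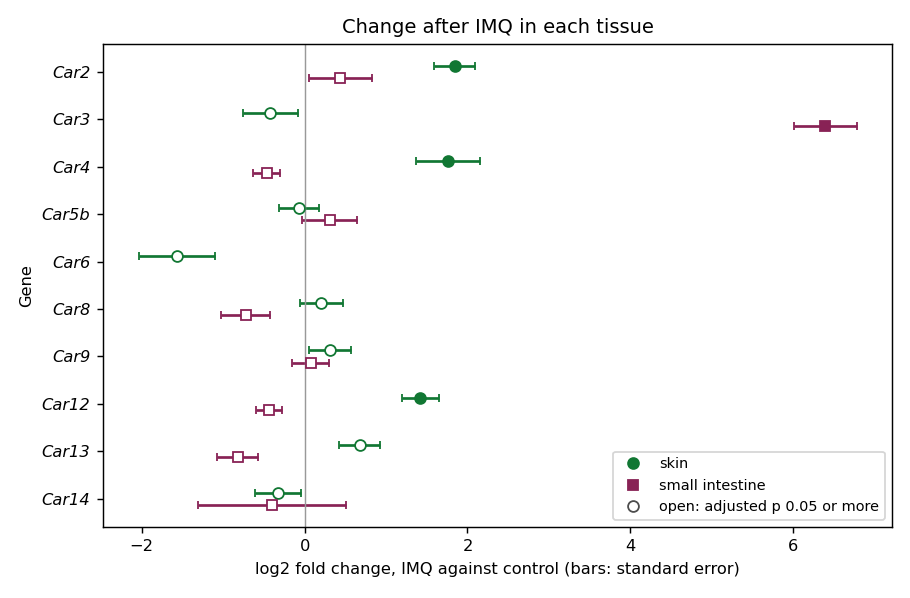
Log2 fold change of IMQ-treated against control mice for each carbonic anhydrase gene, with circles for the skin (3 against 3 libraries), squares for the small intestine (2 against 3 libraries), bars for the SE and filled symbols for an adjusted p under 0.05. *Car2*, *Car4* and *Car12* are filled in the skin (1.84, 1.76 and 1.42) and *Car3* alone in the small intestine (6.39).

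*Car3* kept its interaction in all 11 fits that left out a library. *Car12* kept it in 10, with an adjusted p of 0.0766 without IMQ replicate 10 of the small intestine. *Car4* kept it in 4, and lost it without replicates 1, 5 or 6 of the skin (adjusted p = 0.0871, 0.0799 and 0.0595) and without replicates 8, 9, 10 or 11 of the small intestine (0.0633, 0.0744, 0.147 and 0.0982). It also lost it without filter (0.0528) and with the filter of filterByExpr (0.0526). Without control replicate 2 of the skin, all 3 stayed called.

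The 6 carbonic anhydrase genes outside the list were low, but not all of them were below the members. *Car11* had a mean of 1.85 FPKM in control skin, above *Car4*, *Car9* and *Car8*. *Car15* had a mean of 1.84 FPKM in control small intestine, near *Car8* (2.06). *Car1* had 0 counts in the 5 libraries of the small intestine, and *Car5a* and *Car10* had at most 5 counts in any library. *Car11*, which like *Car8* encodes a related protein without catalytic activity, had normalized counts of 196, 245 and 186 in control and 142, 107 and 75.3 in IMQ-treated skin. Its groups did not overlap, and the log2 fold change of -0.95 (SE 0.29) was not called (edgeR adjusted p = 0.104). *Car7* and *Car15* had 21.9 to 172 normalized counts, and their groups overlapped in both tissues. In both tissues, 0 of the 3 genes tested were called by edgeR, with *Car11* called by DESeq2 in the skin and at an unadjusted p under 0.05 there.

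Genes that act with the carbonic anhydrases were read from 3 lists. Of 12 bicarbonate transporters tested in the skin, 2 fell after IMQ and 0 rose, with a median log2 fold change of -0.10. *Slc26a7*, an anion exchanger, had normalized counts of 251, 632 and 441 in control and 83.1, 56.6 and 71.0 in IMQ-treated mice, with no overlap (log2 fold change -2.65, SE 0.38, edgeR adjusted p = 0.0124). *Slc4a11*, a membrane transporter of the bicarbonate transporter family, had 1084, 739 and 810 in control and 483, 421 and 380 in IMQ-treated mice (log2 fold change -1.04, SE 0.19, adjusted p = 0.0279). In the small intestine, 0 of 11 were called by edgeR and 2 by DESeq2, and 3 had an unadjusted p under 0.05.

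Of 12 proton and lactate transporters tested in the skin, 1 was called higher by edgeR and 5 were called by DESeq2, with 8 at an unadjusted p under 0.05 and a median log2 fold change of 0.11. In the small intestine, 0 of 10 were called by edgeR or DESeq2 and 1 had an unadjusted p under 0.05.

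Of 16 targets of hypoxia-inducible factor in the skin, 2 rose and 0 fell, with a median log2 fold change of 0.31. *Slc2a1*, the glucose transporter, had 4418, 4917 and 2449 normalized counts in control and 12021, 10975.5 and 9919 in IMQ-treated mice (log2 fold change 1.48, SE 0.26, edgeR adjusted p = 0.0238). *Pfkfb4*, a regulator of glycolysis, had a log2 fold change of 0.85 (SE 0.18, adjusted p = 0.0385). *Car9* itself was not called, with normalized counts of 81.4, 110.1 and 73.2 in control and 90.7, 110.03 and 127 in IMQ-treated skin, which overlapped. In the small intestine, 0 of the 16 targets were called by edgeR or DESeq2 and 3 had an unadjusted p under 0.05.

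Over the 11 libraries, the gene most like each member in log2(CPM + 1), where CPM are counts scaled to the library total, was found among 13310 genes by Pearson's correlation. The tissues set most of this likeness, so it is a description. It was highest for *Car9*, with *Naprt* (r = 0.999), and for *Car5b*, with *Cyp2f2* (r = 0.998). *Car3* was most like *Slc44a2* (r = 0.997), *Car4* most like *Tes* (r = 0.996) and *Car8* most like *Slc25a36* (r = 0.996). The values were 0.994 for *Car14* with *Angptl2*, 0.994 for *Car12* with *Wdr61* and 0.993 for *Car6* with *Calm5*. *Car13*, the member nearest to even between the tissues, had 0.962 with *Esco1*, and *Car2* had the lowest value, 0.925 with *Gm4735*.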

How the data were processed

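RNA of the skin and small intestine was sequenced as 100-base paired-end reads after preparation with a kit that keeps the strand. The authors trimmed the reads, aligned them to mm10 with HISAT (version 2.1.0 in the submitters' processing notes) and quantified genes with StringTie (2.1.3b). They deposited 1 table with raw read counts per gene without normalization, and how the counts were made and whether strand was used are not given in the sources used here. The deposited table also holds FPKM computed by the authors, used here for levels between genes, and TPM from the authors, left unused here. The library totals were 44995414 to 58526384. For abundant genes the spread between libraries sets the precision, and counting error adds to it for *Car3* in the small intestine, *Car6* and *Car14*. Replicate pairs differed by 34.0 to 231 times the sampling noise (chi-square per degree of freedom), so each library is 1 sample. Nothing says that the libraries of a group are from separate mice, so p-values measure the spread between these libraries.

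Genes without a 0 in the libraries compared were tested with the quasi-likelihood F-test of edgeR 4.0.16 (R 4.3.3) after relative log expression normalization, and called at an adjusted p under 0.05 over all genes tested (Benjamini-Hochberg). Standard errors were derived from the log2 fold change and its F value. Normalized counts are counts per effective library size, brought to the average effective size within a tissue. DESeq2 (1.42.0), which the study used with the same filter, served as an alternative, along with TMM, limma-voom (limma 3.58.1), filterByExpr, no filter, fits of all 11 or of control libraries, and each library left out. The scripts were tested on simulated data. The members and the lists (3 of partner genes, 9 of cell type markers) were chosen with earlier results of these data known. The genes named are the members, the other carbonic anhydrases, called genes of the bicarbonate transporters and of the hypoxia-inducible factor targets, and for each member the most similar gene with a mean of at least 5 CPM. A called gene of the proton and lactate transporters is counted, and its values are not reported here. Markers were named as defining markers or after their values were seen. Gene positions and promoters are from RefSeq (GRCm38.p6), and transcripts are from GENCODE M21. Python 3.11.15 was used for sequences and figures.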

Additional observations from a re-analysis of the deposited data

Results flagged for a closer look

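For 3 members the change after IMQ differed between the tissues by the test of the difference itself (interaction term in edgeR, adjusted over 18108 genes). *Car3* had an interaction of 6.83 on the log2 scale, with a log2 fold change of 6.39 in the small intestine, where both IMQ libraries were above all controls, and of -0.42 in the skin, where the groups overlapped. *Car4* had an interaction of -2.22, where the skin had a log2 fold change of 1.76 and the small intestine -0.47. *Car12* had an interaction of -1.85, where the skin had 1.42 and the small intestine -0.44. For *Car4* and *Car12*, all IMQ libraries of the skin were above the controls and both IMQ libraries of the small intestine were below them. Separation within a single tissue was common. It held for 15.1% of the genes tested in the skin as higher, and for 13.9% of those tested in the small intestine as lower. The share of genes with both was not computed. Their changes in the small intestine were not called (edgeR adjusted p = 0.283 and 0.302). The interaction of *Car4* was called in 3 of 5 alternative fits, and that of *Car12* in all 5.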

How the results depend on the processing

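No paired analysis was possible because the replicate numbers run from 1 to 11 without repeats and the labels do not say which tissues share a mouse. The Wald test of DESeq2 called 3030 genes in the skin instead of 1382, 1206 in the small intestine instead of 588 (with 2 members instead of 1) and 1281 in the interaction instead of 462, and the interaction had 301 genes without filter. Leaving out each library in turn gave 258 to 2521 genes and 0 to 3 members in the skin, 294 to 801 genes and 1 to 2 members in the small intestine, and 144 to 1072 genes and 1 to 4 members in the interaction. The extremes were IMQ replicate 5 and control replicate 2 in the skin, and no member was called there without control replicate 1 or IMQ replicate 5. Between the control tissues the range was 9267 to 10421 genes and 8 to 9 members. Among the members, signs turned for *Car5b*, *Car9* and *Car14*, none of them called in these comparisons. *Car5b* in the skin ranged from -0.28 to 0.24 over the libraries left out, above 0 without control replicate 2 (0.24) and IMQ replicate 5 (0.00127). In the small intestine *Car9* ranged from -0.32 to 0.39 and *Car14* from -3.43 to 0.48, with the sign turned without IMQ replicate 11. The interaction of *Car14* ranged from -3.09 to 0.79 and was 0.14, 0.10, 0.28, 0.07 and 0.79 without replicates 1, 6, 8, 9 and 11, and that of *Car9* ranged from -0.64 to 0.093, above 0 without replicate 10. Of the other values of members under the alternatives, 426 kept direction and side of the threshold, 28 fell below it and 6 passed it. With 1 IMQ library left in the small intestine, that library is assumed to vary like the controls. The cause of these changes was not tested.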
